A study of Mus musculus with 42 samples.

Results

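The distal receptor cluster of chromosome 2 is a run of olfactory receptor (Olfr) genes that lies beyond the large receptor cluster found at 84 to 91 Mb of the same chromosome. Its members were taken as the rows of the count table with a GENCODE M21 symbol of Olfr plus a number and a position between 110.5 and 113.0 Mb of chromosome 2 (GRCm38). The rule itself uses no measured value, but it was chosen with earlier results of these data known. This gave 27 of the 1170 receptors among the 44674 genes of the table, spread over chr2:111230360-112159157, and 22 of the 27 had enough counts to be tested. The annotation places 46 receptors in the interval, and the other 19 have no row under their M21 gene identifiers and are not analysed here. Which annotation release the authors counted against was not established, while lengths and shared words below come from M21.

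Adult C57BL/6NCrl males, 8 to 12 weeks old, spent 1 h without odour or with the odour of NCD, of a bacon-flavoured chow (BFD) or of a lard-based high-fat diet (HFD_lard_). Main olfactory epithelia were then pooled from 4 mice at a time, which gave 5 pools of the no odour group, 6 of NCD, 5 of BFD and 5 of HFD_lard_. Each pool gave a library of the RNA bound to ribosomes with phosphorylated S6 (the pulldown of pS6-ribotrap) and a library of its total lysate (the input). Because whole epithelia were pooled, no value refers to a single mouse or a single neuron.

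A mature olfactory sensory neuron (OSN) expresses a single receptor gene from a single allele, so that the RNA of a receptor stands for the neurons that chose it. Odour binding raises cyclic AMP through a G protein and adenylyl cyclase, the neuron depolarises, and ribosomal protein S6 becomes phosphorylated in the active cell. The pulldown/input ratio of a receptor thus follows the activity of its own neurons. Neighbouring receptor genes, which arose by duplication, can be read one by one where their sequences differ enough for reads to be assigned.

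Of the 27 members, 24 are protein coding and 3 are pseudogenes, with 10 on the plus strand and 17 on the minus strand. The proteins of the coding members shared 45.5 to 97.0% of their residues over 276 pairs, with a median of 57.1%. Most pairs are thus distant relatives, but members also have closer ones. Among the members, the closest relative of a coding member shared from 61.9% (Olfr1289) to 97.0% (Olfr1282 and Olfr1286) of its residues. Receptors of the interval without a row can be closer. Olfr1293-ps shared 87.7% of residues with Olfr1289, and Olfr1298 shared 88.5% with Olfr1297. Short reads can be placed only where sequences differ. A median of 9.46% of the 31-base words of a member occurred in transcripts of other genes, and 8 members had over 20% of such words, the highest being Olfr268-ps1 with 67.9%. The receptors on which the results below turn were far under this, with 1.49% for Olfr1275, 4.34% for Olfr1276, 0.961% for Olfr1278, 3.34% for Olfr1297 and 0.981% for Olfr1301. Olfr1276 overlaps an antisense gene, Gm13962, from which reads cannot be told apart without strand, but that gene held at most 2 counts in any library.

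The 5 members that were not tested were nearly silent. Their highest count in any of the 42 libraries was 2 for Olfr1282, 8 for Olfr1287, 5 for Olfr1292-ps1, 2 for Olfr1296-ps1 and 1 for Olfr268-ps1. They include the 3 pseudogenes, and Olfr1282 and Olfr1287 share 67.6% and 49.1% of their words with other transcripts, so their low counts cannot be told apart from reads that were assigned to close copies. The tested members were sparse as well, as the median count of a member over the pulldowns was 37.

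Levels of different receptors were compared only per length, as counts per kilobase of exon scaled to the library size, in the input of the 5 pools without odour. In a bulk sample fewer neurons of a kind and less RNA in each of them cannot be told apart. Olfr1301 had the highest level, 4.39 ± 0.83 (SD, n = 5), and its lowest pool stood above the highest pool of the next receptor. That receptor was Olfr1281 with 1.15 ± 0.32 (SD, n = 5), followed by Olfr1308 with 0.812 ± 0.166 (SD, n = 5) and Olfr1297 with 0.647 ± 0.114 (SD, n = 5). The lowest tested member, Olfr1314, had 0.0623 ± 0.0334 (SD, n = 5), which is 70.3-fold under Olfr1301. Apart from Olfr1301, the pools of each receptor overlapped those of the next receptor in the order. The median over the 22 tested members was 0.435, against 0.303 over the 886 other receptors tested.

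Without odour, receptors of the cluster were held in the pulldown below their share of the input or near it. At an adjusted p under 0.001, the threshold that the study used for activated receptors, 4 of the 22 (18.2%) were lower in the pulldown than in the input, a share near the 16.0% of all genes tested. None was higher: edgeR called 0 members, against 19.8% of all genes, with 0 at an unadjusted p under 0.05 and 0 by DESeq2. DESeq2 called 6 members lower, against 4025 of all 21168 genes and 101 of the other 886 receptors. The median log2 pulldown/input ratio was -0.40 over the 22 members, -0.19 over the other 886 receptors and 0.01 over all genes. Of those 886, 109 were higher and 90 lower, while the large cluster of the same chromosome had a median of -0.37 over 176 receptors, with 10 higher and 23 lower.

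The 4 lower members were Olfr1278, Olfr1297, Olfr1301 and Olfr1308. The log2 ratios of Olfr1278 in the pools without odour were -1.55, -1.21, -1.78, -1.04 and -1.04. Those of Olfr1297 were -0.89, -1.70, -1.41, -1.60 and -0.73. All 10 values were below 0, and in both receptors the pulldown held less than the input in every pool. The fitted log2 ratio was -1.36 ± 0.17 (SE) for Olfr1278 (adjusted p = 1.93e-07) and -1.26 ± 0.15 (SE) for Olfr1297 (adjusted p = 5.50e-08).

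Olfr1301 had log2 ratios of -0.48, -0.73, -0.73, -0.89 and -0.52 without odour. Olfr1308 had -1.16, -0.63, -0.88, -1.59 and -0.84. Again all 5 pools of each were below 0, with a narrow spread for the abundant Olfr1301. The fit gave -0.67 ± 0.08 (SE) for Olfr1301 (adjusted p = 3.22e-08) and -1.07 ± 0.21 (SE) for Olfr1308 (adjusted p = 1.19e-04). The call of Olfr1308 was lost without no odour replicate 4 (log2 ratio -0.93, adjusted p = 0.00155), with ribosomal RNA share as a covariate (-1.17, adjusted p = 0.00136) and in a fit of only the groups compared (-1.10, adjusted p = 0.00156). The ratio stayed below 0 in all of these, and the cause was not tested.

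The remaining 18 tested members ran from -1.08 for Olfr1306 to 0.64 for Olfr1314. The value of Olfr1306 leaned on no odour replicate 3, with 2 counts in the pulldown and a log2 ratio of -3.18, and was -0.60 without it. Of these and the called members together, 11 of the 22 were lower at an unadjusted p under 0.05, against 6489 of all 21168 genes and 260 of the other 886 receptors. At the upper end stood Olfr1317 with 0.37 ± 0.37 (SE), Olfr1289 with 0.54 ± 0.56 (SE) and Olfr1314 with 0.64 ± 0.60 (SE), all with low counts and standard errors about as large as the ratio. None of these 3 passed the test (adjusted p = 0.402, 0.420 and 0.374). The value of Olfr1314 leaned on no odour replicate 3, with a log2 ratio of -1.97 against 0.71 to 1.32 in the other pools without odour.

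Under odour, a few receptors of the cluster rose and none fell. With NCD odour 2 of the 22 rose (Olfr1275 and Olfr1278), where 0.359% of all genes did. With BFD odour 4 rose (Olfr1275, Olfr1276, Olfr1278 and Olfr1301), against 2.47% of all genes, but this count was 1 with ribosomal RNA share as a covariate and 0 in a fit of only the groups compared, as given below. With HFD_lard_ odour 1 rose (Olfr1297), against 0.699% of all genes. Among the 886 other receptors 15 rose with NCD, 30 with BFD and 11 with HFD_lard_ odour. All 3 comparisons share the 5 pools without odour, so they are not independent of each other.

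A looser threshold, an adjusted p of 0.05, gave larger counts among the members and over the table alike. Without odour 11 of the 22 were then lower in the pulldown, against 28.5% of all genes. With NCD and HFD_lard_ odour 4 and 4 rose, against 6.79 and 7.67%, and with BFD odour 5 did, against 2542 of all 21168 genes. Between the odours 0 differed for BFD against NCD, 2 for HFD_lard_ against NCD and 2 for HFD_lard_ against BFD, where 0.0283, 0.0709 and 0.109% of all genes did.

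The median log2 fold change of the 22 members was 0.33 with NCD, 0.48 with BFD and 0.22 with HFD_lard_ odour. Over the other receptors it was 0.23, 0.29 and 0.27, and over all genes it was -0.00, 0.00 and -0.01. Receptors outside the cluster thus had positive medians too, and the cluster as a whole was not tested as a set. The receptors that rose lay in 2 places, at the proximal end of the cluster and near its middle.

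**Figure D1:**
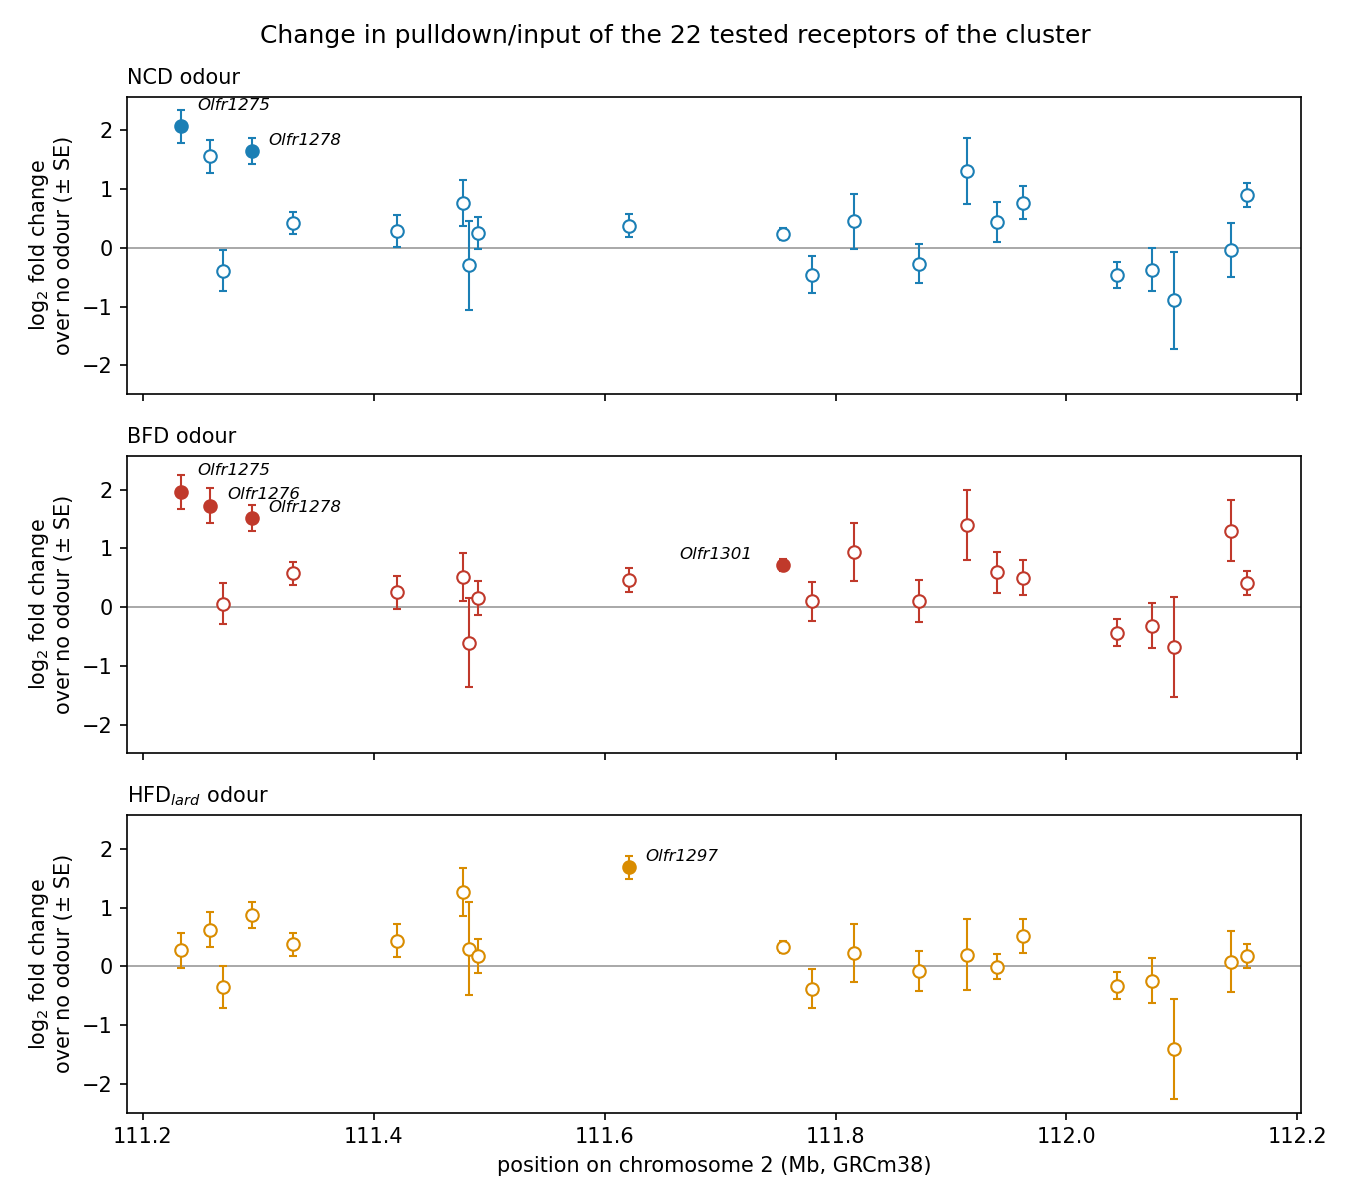
Log2 fold change of pulldown/input over no odour (± SE) for the 22 tested receptors of the cluster, placed by their position on chromosome 2. Filled points have an adjusted p under 0.001 and carry their names.

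The proximal end holds Olfr1275, Olfr1276, Olfr1277 and Olfr1278, separated by 19.2, 2.92 and 16.0 kb. Olfr1275, the first member of the cluster, had 11, 17, 17, 38 and 42 counts in the pulldowns without odour. With NCD odour its pulldowns held 130 to 193 counts (median 137.5), and with BFD odour 105, 148, 196, 151 and 146. With HFD_lard_ odour they held 50, 38, 40, 37 and 31. The pulldowns with NCD or BFD odour were all far above those without odour, while those with HFD_lard_ odour lay around the upper end of the range without odour. Its inputs varied less, from 19 to 53 counts without odour and from 27 to 71 with any odour.

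Taken as log2 pulldown/input ratios, Olfr1275 had -0.92, 0.07, -0.66, 0.16 and -0.39 without odour. With NCD odour it had 1.42 to 2.27 (median 1.55), with BFD odour 0.75, 2.09, 1.72, 1.59 and 1.77, and with HFD_lard_ odour 0.48, -0.77, -0.03, 0.04 and -0.01. Every pool with NCD or BFD odour was above the highest pool without odour, whereas 1 of 5 pools with HFD_lard_ odour was. The log2 fold change was 2.06 ± 0.28 (SE) with NCD (adjusted p = 4.76e-05), 1.96 ± 0.29 (SE) with BFD (adjusted p = 7.59e-05) and 0.27 ± 0.30 (SE) with HFD_lard_ odour (adjusted p = 0.596).

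Olfr1278, at the far end of this stretch, was also called with NCD and BFD odour but began from a lower ratio. To the values without odour given above, it had -0.08 to 0.58 (median 0.29) with NCD odour. With BFD odour it had 0.53, 0.34, -0.38, 0.03 and 0.24, and with HFD_lard_ odour -0.54, -0.45, -0.36, -0.61 and -0.39. All 16 pools with an odour were above the 5 without, and the pools with HFD_lard_ odour lay in between, below every pool with NCD odour, with 4 of 5 below every pool with BFD odour. The log2 fold change was 1.64 ± 0.22 (SE) with NCD (adjusted p = 3.65e-05), 1.52 ± 0.22 (SE) with BFD (adjusted p = 7.59e-05) and 0.88 ± 0.23 (SE) with HFD_lard_ odour (adjusted p = 0.0110), the last of which did not pass.

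Olfr1276 lies between them on the chromosome. Its log2 ratios were -0.10, -0.23, -0.78, -0.58 and -0.81 without odour and 0.28 to 1.87 (median 0.90) with NCD odour. With BFD odour they were 0.85, 1.18, 1.60, 0.79 and 1.29, and with HFD_lard_ odour -0.01, -0.30, 0.14, 0.37 and 0.17. Again no pool with NCD or BFD odour overlapped those without odour, and 4 of 5 with HFD_lard_ odour were above them by a smaller step. With BFD odour it rose by 1.73 ± 0.30 (SE) on the log2 scale (adjusted p = 2.80e-04). Its NCD value, a log2 fold change of 1.56 ± 0.29 (SE), was just short of the threshold (adjusted p = 0.00143), and with HFD_lard_ odour it was 0.62 ± 0.30 (SE; adjusted p = 0.164).

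Olfr1277 sits within the same stretch and did not rise with its neighbours in the fit of all pools. Its log2 ratios were -1.44, 0.13, -0.73, -0.16 and 0.41 without odour and -1.25 to -0.41 (median -0.54) with NCD odour. With BFD odour they were -0.39, -0.22, -0.61, -0.61 and 0.42, and with HFD_lard_ odour 0.22, -1.33, -0.83, -1.32 and 0.02. The 4 groups overlapped throughout. The log2 fold changes were -0.39 ± 0.35 (SE), 0.06 ± 0.35 (SE) and -0.36 ± 0.36 (SE) with NCD, BFD and HFD_lard_ odour, and none passed (adjusted p = 0.505, 0.933 and 0.552). The BFD value depended on the setting, since it was 1.08 with ribosomal RNA share as a covariate (adjusted p = 0.0988), so a rise with BFD odour is not excluded. The next tested member, Olfr1281, had 0.42 ± 0.18 (SE), 0.58 ± 0.19 (SE) and 0.37 ± 0.19 (SE), and none passed either (adjusted p = 0.130, 0.0305 and 0.190).

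**Figure D2:**
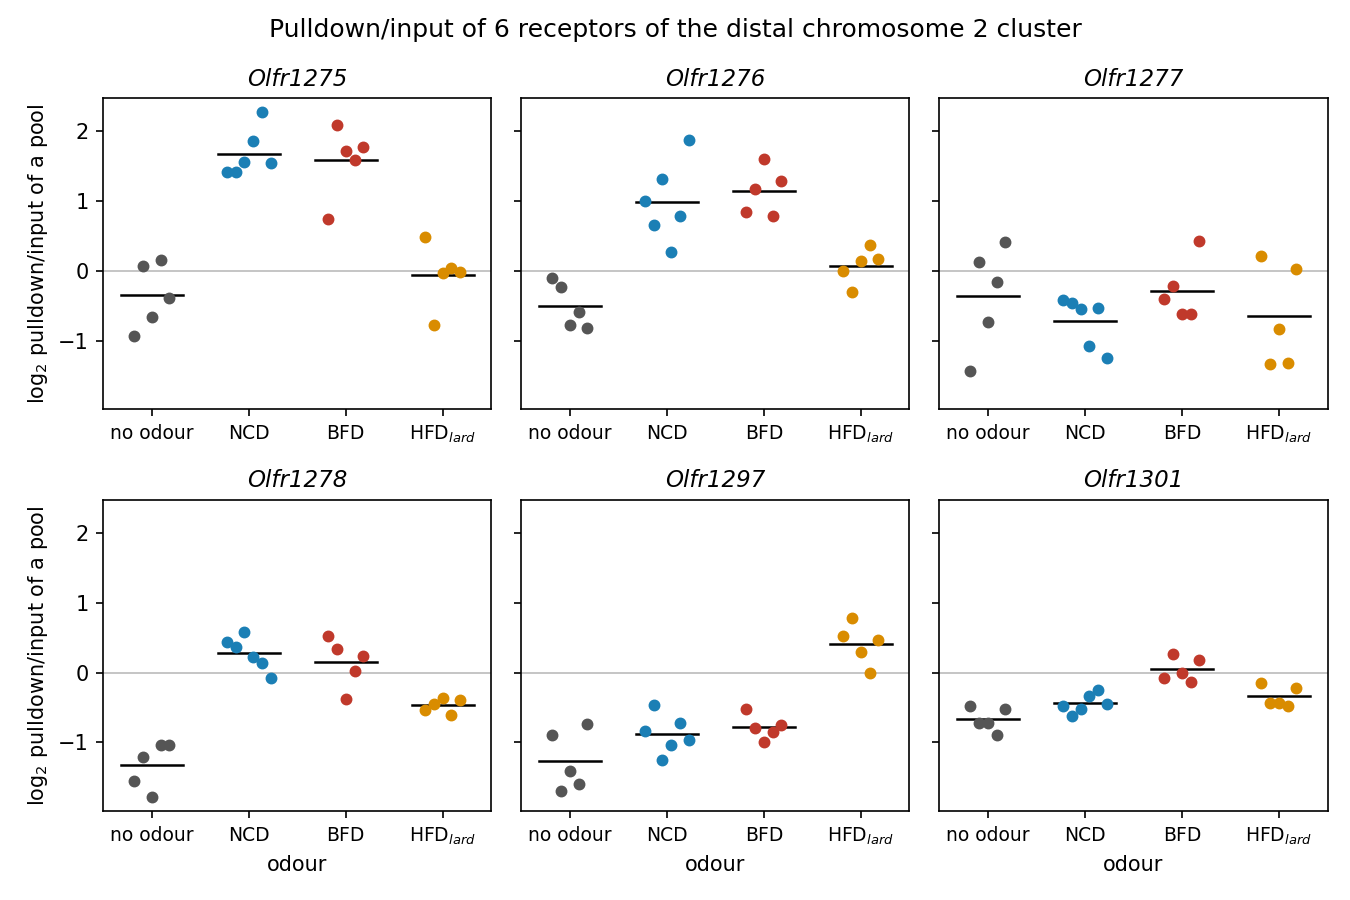
Log2 pulldown/input ratio of every pool (points) and the group mean (bars) for the 4 proximal receptors and for Olfr1297 and Olfr1301, by odour (5, 6, 5 and 5 pools in the order drawn).

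The coding sequences tell the 4 proximal neighbours apart. Olfr1276 and Olfr1278 were identical at 88.6% of 936 aligned bases, and Olfr1275 shared 79.6% with Olfr1276 and 78.1% with Olfr1278. Olfr1277 shared 61.3% with Olfr1276. A stretch of 60 coding bases, numbers 55 to 114 from the start codon, is given for the 3 receptors that rose, to show how far near relatives with similar changes still differ. The bases come from the GENCODE M21 transcripts on GRCm38, in the direction of the gene, at chr2:111257171-111257230 (plus strand), chr2:111231678-111231737 (minus strand) and chr2:111292324-111292383 (plus strand), and capitals mark bases that differ from Olfr1276.
Olfr1276: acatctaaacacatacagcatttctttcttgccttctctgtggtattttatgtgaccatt
Olfr1275: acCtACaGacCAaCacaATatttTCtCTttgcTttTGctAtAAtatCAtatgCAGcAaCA
Olfr1278: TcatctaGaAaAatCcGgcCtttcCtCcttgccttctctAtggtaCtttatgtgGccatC
Of the 60 bases, 27 differed in Olfr1275 and 13 in Olfr1278.

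Differences between the odours were tested in the same fit. Between BFD and NCD odour edgeR called 0 of the 22 members, against 0.00945% of all genes, with 3 at an unadjusted p under 0.05 (1533 of all 21168 genes and 58 of the other 886 receptors) and 0 by DESeq2. The log2 difference was -0.10 ± 0.25 (SE) for Olfr1275, 0.17 ± 0.27 (SE) for Olfr1276 and -0.13 ± 0.20 (SE) for Olfr1278, and its sign turned in some of the other settings given in the closing section. A larger effect with BFD than with NCD odour was therefore not shown for any of the 3, although edgeR called Olfr1276 with BFD odour alone. DESeq2 called Olfr1276 with NCD odour (log2 fold change 1.56, adjusted p = 2.41e-04). With BFD odour DESeq2 gave an adjusted p for 7 of the 22 members, and Olfr1276 was not among them. It called 3 of these 7, against 1180 raised of 15012 genes.

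Between HFD_lard_ and NCD odour 1 member differed (Olfr1297, below), against 0.0236% of all genes. Between HFD_lard_ and BFD odour edgeR called 0, against 0.0378% of all genes, with 7 at an unadjusted p under 0.05 (1693 of all genes and 84 of the other 886 receptors), of which 6 were lower with HFD_lard_ odour, and 2 by DESeq2 (Olfr1275 and Olfr1297). For Olfr1275 the log2 ratio with HFD_lard_ odour was 1.79 ± 0.27 (SE) below that with NCD odour, a difference of -1.79 (adjusted p = 0.00130), and the difference from BFD odour was -1.69 ± 0.27 (SE; adjusted p = 0.00286). Both are just short of the threshold, and all 5 pools with HFD_lard_ odour were below the lowest pool of either other odour. The differences from NCD odour were smaller for Olfr1276, -0.93 ± 0.27 (SE; adjusted p = 0.613), and for Olfr1278, -0.77 ± 0.20 (SE; adjusted p = 0.380).

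Olfr1297 had the reverse order of odours. Its pulldowns held 53, 30, 44, 59 and 101 counts without odour, 56 to 98 (median 74) with NCD odour, and 105, 69, 60, 64 and 82 with BFD odour. With HFD_lard_ odour they held 173, 258, 173, 119 and 192 counts, all above the highest of the other 16 pulldowns. Its inputs were 119 to 183 counts without odour and 105 to 166 with HFD_lard_ odour. The input was somewhat lower with HFD_lard_ odour, by a log2 fold change of -0.28 ± 0.12 (SE), which did not pass (adjusted p = 0.103) but is part of the ratio.

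As log2 ratios, Olfr1297 had -1.25 to -0.47 (median -0.90) with NCD odour. With BFD odour it had -0.53, -0.80, -0.99, -0.85 and -0.76, and with HFD_lard_ odour 0.53, 0.78, 0.29, -0.01 and 0.47. The 5 pools with HFD_lard_ odour were above every pool of the other 3 groups, which overlapped each other. It rose by 1.68 ± 0.20 (SE) on the log2 scale with HFD_lard_ odour (adjusted p = 5.31e-06), a 3.21-fold change, while the log2 fold change was 0.37 ± 0.20 (SE) with NCD (adjusted p = 0.216) and 0.47 ± 0.20 (SE) with BFD odour (adjusted p = 0.101).

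The difference of Olfr1297 between HFD_lard_ and NCD odour was 1.31 ± 0.19 (SE) on the log2 scale and passed (adjusted p = 7.96e-04). Over the other settings the adjusted p ranged from 6.73e-07 to 0.00564 around a log2 difference of 1.22 to 1.41, so that it stood on either side of the threshold. Between HFD_lard_ and BFD odour the difference was 1.21 ± 0.20 (SE), which did not pass with edgeR (adjusted p = 0.00264). The rise over no odour was called in every setting.

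Olfr1301, the most abundant member, moved by a small step with little spread. The log2 ratios were -0.61 to -0.24 (median -0.46) with NCD odour. With BFD odour they were -0.07, 0.27, -0.01, -0.14 and 0.18, and with HFD_lard_ odour -0.15, -0.44, -0.43, -0.47 and -0.21. The 5 pools with BFD odour were above every other pool of the experiment, and those with HFD_lard_ odour were above the pools without odour. With BFD odour it rose by 0.72 ± 0.11 (SE) on the log2 scale (adjusted p = 7.59e-05), a 1.65-fold change. The call, but not the size of the change, was lost with ribosomal RNA share as a covariate and in a fit of only the groups compared.

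For Olfr1301 the NCD group had a log2 fold change of 0.23 ± 0.10 (SE; adjusted p = 0.133), and with HFD_lard_ odour 0.33 ± 0.11 (SE; adjusted p = 0.0354). The difference between BFD and NCD odour, 0.49 ± 0.10 (SE), had the smallest p of the cluster in that comparison and did not pass (adjusted p = 0.114). Its input was lower with BFD odour by a log2 fold change of -0.31 ± 0.10 (SE; adjusted p = 0.0170) and with HFD_lard_ odour by -0.24 ± 0.10 (SE; adjusted p = 0.0976). Neither passed, but both are part of the ratios, and with HFD_lard_ odour the mean pulldown level was 15.9 CPM against 14.9 without odour.

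Olfr1297 and Olfr1301 are neighbours among the tested members, 124.5 kb apart and on opposite strands, and were called with different odours. Their coding sequences were identical at 79.0% of bases. Olfr1302, 18.6 kb beyond Olfr1301, is a closer relative of both, with 82.1 and 84.3%, and its log2 fold changes were -0.46 ± 0.31 (SE), 0.10 ± 0.33 (SE) and -0.38 ± 0.33 (SE) with NCD, BFD and HFD_lard_ odour (adjusted p = 0.363, 0.875 and 0.489). Leaving out each pool, these ran from -0.579 to -0.345, from 0.0089 to 0.218 and from -0.590 to -0.106. The last 60 coding bases of the 3 receptors are given because these relatives were called with different odours or with none, although their changes were not tested against each other. They were read from the same transcripts, in the direction of the gene, at chr2:111621137-111621196 (minus strand), chr2:111755127-111755186 (plus strand) and chr2:111781198-111781257 (plus strand), with capitals for bases that differ from Olfr1297.
Olfr1297: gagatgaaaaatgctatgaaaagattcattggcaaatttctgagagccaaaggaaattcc
Olfr1301: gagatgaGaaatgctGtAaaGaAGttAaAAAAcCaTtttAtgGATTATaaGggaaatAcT
Olfr1302: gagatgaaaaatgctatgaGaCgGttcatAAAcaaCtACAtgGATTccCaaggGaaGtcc
Of the 60 bases, 23 differed in Olfr1301 and 17 in Olfr1302.

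Further members had positive changes in single comparisons that did not pass. Olfr1318, the last member, was singled out after its values were seen. Its log2 ratios were -0.70, 0.01, -0.01, 0.06 and 0.11 without odour and 0.56 to 1.40 (median 0.69) with NCD odour. All 6 pools with NCD odour were above those without, and the log2 fold change was 0.90 ± 0.20 (SE; adjusted p = 0.00490), against 0.41 ± 0.20 (SE; adjusted p = 0.164) with BFD and 0.17 ± 0.21 (SE; adjusted p = 0.630) with HFD_lard_ odour. Olfr1317, next to it, is a near copy with 96.5% of the protein shared, so reads may be divided between them. The log2 fold change of Olfr1317 was -0.03 ± 0.46 (SE) with NCD odour and 1.30 ± 0.52 (SE) with BFD odour. With HFD_lard_ odour it was 0.08 ± 0.51 (SE), and none passed (adjusted p = 0.979, 0.0728 and 0.936).

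Olfr1288 had log2 ratios of -0.66, 0.21, 0.60, 0.20 and 0.21 without odour and 1.65, 1.36, 1.77, 0.50 and 1.38 with HFD_lard_ odour. Of the 5 pools with HFD_lard_ odour, 4 were above the highest without odour, and 1 was within their range. Its log2 fold change was 1.27 ± 0.41 (SE; adjusted p = 0.0334) with HFD_lard_ odour, and 0.76 ± 0.39 (SE; adjusted p = 0.210) and 0.51 ± 0.41 (SE; adjusted p = 0.410) with NCD and BFD odour. Olfr1308, low without odour, had 0.77 ± 0.28 (SE; adjusted p = 0.0691) with NCD odour. Over the 22 members, 8 had a positive change at an unadjusted p under 0.05 with NCD, 8 with BFD and 5 with HFD_lard_ odour, and 0 had a negative one. Over all 21168 genes the positive ones were 2939, 3644 and 3045, and over the other 886 receptors 181, 192 and 189. The 5 of 22 with HFD_lard_ odour are a share close to that of the other receptors.

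In the input the amount of receptor RNA could be compared between the odours. Of the 21 members tested there, edgeR called 0 with any odour, against 14.0% of all genes, and DESeq2 called 0. Most of the genes called were those of BFD odour, with 1107 higher and 1705 lower, against 117 and 87 with NCD and 130 and 67 with HFD_lard_ odour. The other receptors were hardly called either, as of 857 edgeR called 0 with NCD odour, 3 higher and 1 lower with BFD odour, and 1 lower with HFD_lard_ odour. At an unadjusted p under 0.05, BFD odour had 2 higher and 4 lower members, HFD_lard_ odour 1 higher and 3 lower, and NCD odour 0. Over all 20451 genes BFD odour had 4793 higher and 4872 lower and HFD_lard_ odour 3583 higher and 3552 lower. Over the other 857 receptors BFD odour had 72 higher and 49 lower and HFD_lard_ odour 100 higher and 30 lower, so that lower inputs made up a larger share of the members than of the other receptors, a difference that was not tested. The smallest adjusted p was the 0.0170 of Olfr1301. The 1-h exposure thus left the input of these receptors without a change that passed the test, while 3 members would pass at an adjusted p of 0.05, as 44.9% of all genes would.

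Of all receptor counts without odour, the cluster made up 1.54 ± 0.15% (SD, n = 5) of those in the pulldown and 2.50 ± 0.23% (SD, n = 5) of those in the input. After exposure to NCD, BFD and HFD_lard_ odour its pulldown share was 1.60 ± 0.05% (SD, n = 6), 1.65 ± 0.12% (SD, n = 5) and 1.45 ± 0.04% (SD, n = 5). Its input share was 2.38 ± 0.10% (SD, n = 6), 2.16 ± 0.03% (SD, n = 5) and 2.20 ± 0.08% (SD, n = 5). The cluster thus weighed less in the pulldown than in the input in all 4 groups. Receptors together made up 0.267% of the pulldown counts without odour and 0.350, 0.372 and 0.368% with NCD, BFD and HFD_lard_ odour. Their share of the input counts was higher with odour as well, from 0.218% to 0.262, 0.282 and 0.272%. These shares are of all counts, ribosomal RNA included. The ribosomal RNA share was itself higher without odour, as given below, which alone lowers the share of receptors there. A rise of receptor RNA relative to other RNA was not tested.

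The libraries without odour also differed in other measures. Ribosomal RNA made up 22.3% of the pulldown counts and 27.1% of the input counts without odour, against 13.6 and 15.3% with NCD, 13.7 and 11.4% with BFD and 12.5 and 15.1% with HFD_lard_ odour. With this share as a covariate 1 member (Olfr1275) was raised with BFD odour in place of 4, and 45 genes of the whole table in place of 522. The 2 members raised with NCD and the 1 raised with HFD_lard_ odour remained, where 64 and 122 of all genes were raised. The BFD log2 fold changes of the other 3 were then 1.40 for Olfr1276 (adjusted p = 0.0473), 1.77 for Olfr1278 (adjusted p = 0.00137) and 0.77 for Olfr1301 (adjusted p = 0.00282), so Olfr1278 and Olfr1301 had changes as large as before. With only the pools without odour and those with BFD odour in the fit, 0 members were raised with BFD odour, and the genes raised over the whole table went from 522 to 25. The log2 fold changes themselves were 1.99, 1.75, 1.54 and 0.74 for Olfr1275, Olfr1276, Olfr1278 and Olfr1301 in that fit, as large as in the fit of all pools.

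Markers of mature OSNs were followed in both kinds of library. The summed level of 6 mature OSN markers in the pulldown, Omp being the most abundant and none at 0, ran from 14674 to 18354 scaled counts (CPM) without odour, from 19670 to 22273 with NCD, from 16716 to 22962 with BFD and from 17789 to 20742 with HFD_lard_ odour. All pools with NCD odour were above the range without odour, while the ranges with BFD and HFD_lard_ odour overlapped it. In the input it ran from 13876 to 17492, 15610 to 17097, 14056 to 15676 and 14482 to 17086. Of the 6 markers edgeR called 0 with NCD odour, 0 with HFD_lard_ odour and 1 with BFD odour, which was Omp (log2 fold change 0.64 ± 0.10, SE; adjusted p = 1.89e-04). At an unadjusted p under 0.05, 3 were higher and 0 lower with NCD odour, and 2 higher and 1 lower with HFD_lard_ odour. DESeq2 called 1 raised with each odour. Their part in the changes of the cluster was not tested.

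Genes of odour transduction, the steps that follow a receptor, gave 2 of 19 raised with BFD odour, Gng13, a G protein gamma subunit (1.33 ± 0.24, SE; adjusted p = 6.14e-04), and Omp. The input of both was lower with BFD odour, by a log2 fold change of -1.17 for Gng13 (adjusted p = 3.90e-04) and -0.45 for Omp (adjusted p = 2.83e-04), which is part of their ratios, and in the input 3 of the 19 were lower and 3 higher. With NCD and HFD_lard_ odour edgeR called 0 of the 19, and DESeq2 called 1 and 1 raised. At an unadjusted p under 0.05, 7 were higher and 3 lower with NCD odour, and 4 higher and 3 lower with HFD_lard_ odour. Of 14 genes of receptor choice and trafficking edgeR called 0 with each odour, and DESeq2 called 0. At an unadjusted p under 0.05, 0, 1 and 0 were higher and 2, 7 and 7 lower with NCD, BFD and HFD_lard_ odour. In either direction 5905, 7114 and 6273 of all 21168 genes were at that level. Of 15 activity-dependent genes S100a5, a calcium-binding protein of active OSNs, rose with BFD odour (1.16 ± 0.17, SE; adjusted p = 9.08e-05), as did Btg2 (0.63 ± 0.11, SE; adjusted p = 2.65e-04). The pulldown/input ratio of Arc fell by 0.97 with BFD (adjusted p = 9.99e-04) and by 1.12 on the log2 scale with HFD_lard_ odour (adjusted p = 6.04e-04). These are changes of a ratio, of which the input is a part. The log2 fold change in the input was 0.76 with BFD (adjusted p = 9.54e-04) and 0.82 with HFD_lard_ odour (adjusted p = 0.00215, which did not pass) for Arc, and -0.87 with BFD odour for S100a5 (adjusted p = 1.65e-04). Of the 15 genes 7, 7 and 6 were higher in the input with NCD, BFD and HFD_lard_ odour, and 0, 1 and 0 lower.

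The interval holds 29 other genes of the table, of which 10 were tested. With BFD odour 2 of the 10 rose, Nop10 (0.84 ± 0.16, SE; adjusted p = 6.95e-04) and Emc7 (0.52 ± 0.10, SE; adjusted p = 6.22e-04). With NCD and HFD_lard_ odour edgeR called 0, with 4 and 4 at an unadjusted p under 0.05 and 1 and 0 by DESeq2. In the input with BFD odour edgeR called 1 of the 10 higher and 1 lower, with 1 and 4 at an unadjusted p under 0.05. The input is part of these ratios.

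In the lists of markers of other cell types that are reported here, a few genes differed by odour. Of 4 immature OSN markers Dpysl3 fell with all 3 odours (log2 fold change -0.53, -0.61 and -0.50). The other 3 were not called and ran from -0.07 to 0.39, and the median of the 4 was 0.01 with NCD, 0.12 with BFD and 0.04 with HFD_lard_ odour. Of 4 markers of Bowman's glands Bpifb9b (1.87, 1.85 and 1.93) and Lcn11 (2.71, 2.34 and 2.71) rose with NCD, BFD and HFD_lard_ odour. The other markers of that list, Sox9 (-0.35, -0.39 and -0.33) and Muc5b (-0.13, -0.71 and -0.17), had negative changes that edgeR did not call, and DESeq2 called 1 marker of the list lower with BFD odour. For the 3 horizontal basal, 4 sustentacular, 3 respiratory ciliated, 4 neutrophil, 3 macrophage and 4 erythroid markers edgeR called 0 with any odour, with at most 2 of a list at an unadjusted p under 0.05, and DESeq2 called 1, a macrophage marker with HFD_lard_ odour. Without odour, all 4 sustentacular and all 3 horizontal basal markers were lower in the pulldown than in the input (median log2 ratio -1.94 and -2.29). In contrast, 4 of 4 erythroid (median 2.28), 3 of 3 macrophage (1.18), 3 of 4 neutrophil (1.67), 3 of 4 immature OSN (0.50) and 1 of 3 respiratory ciliated markers (0.41) were higher in the pulldown, as was 1 marker of Bowman's glands, while another was lower. Of the mature OSN markers 4 of 6 (median 0.46), of odour transduction 10 of 19 (0.26) and of the activity-dependent genes 11 of 15 (1.09) were higher in the pulldown. The pulldown thus also held RNA of cells other than OSNs. The summed levels set the pulldowns without odour apart in 3 of these lists. For the macrophage markers, Csf1r being the most abundant, they ran from 69.0 to 100.3 CPM without odour and from 42.4 to 56.1, 33.9 to 54.0 and 44.9 to 50.1 with NCD, BFD and HFD_lard_ odour. In the input they ran from 31.8 to 44.8, 26.8 to 28.5, 24.3 to 27.3 and 26.4 to 33.4, and 1 of the 3 macrophage markers was called lower with BFD odour there, as were 2 of the 4 immature OSN markers. The pulldown sum was also higher without odour for the immature OSN markers, 922 to 1022 against at most 900, 834 and 894. Dpysl3, the marker called lower, was the most abundant of these. For the markers of Bowman's glands, Bpifb9b being the most abundant, the sum was lower without odour, 6154 to 8321 against at least 12301, 14515 and 15920. In the input the Bowman's gland sum ran from 6805 to 13549 without odour. With NCD, BFD and HFD_lard_ odour it ran there from 7937 to 8512, 12222.5 to 14678 and 10078 to 10969. The part of these lists in the results of the cluster was not tested.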

How the data were processed

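The authors pooled 4 epithelia for each sample, ran the nf-core rnaseq pipeline with Salmon on GRCm38 and deposited estimated counts per gene (expected counts), of which 30.9% were not whole. All 42 libraries were used, with 25392812 to 36738330 counts in a pulldown and 24839555 to 36781553 in an input, and a receptor of 37 counts carries a large counting error. The counts were rounded and kept by filterByExpr (minimum count 10) over 8 groups. They entered a robust quasi-likelihood fit with TMM scaling in edgeR 4.0.16 (limma 3.58.1, R 4.3.3), whose design held the pools and the interaction of pulldown and odour. P-values were adjusted over all 21168 genes by the Benjamini-Hochberg method, and 0.001 was the threshold. The inputs were fitted on their own (20451 genes). Log2 ratios of single pools are log2 CPM (prior count 2) of the pulldown minus the input. DESeq2 1.42.0, other filters, other scaling, a replicate block, covariates and leaving out each pool served as alternatives.

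The pairing of a pulldown with its input comes from the sample labels and the methods. It was checked on the counts, where the deviation of a pulldown from its group mean had a median correlation of 0.014 with that of its own input (21 pools) and of -0.004 with inputs of other pools (90 pairs). The ranges overlapped, from -0.079 to 0.211 and from -0.147 to 0.147. The counts thus do not show the pairing, which rests on the labels and the methods. No 2 libraries of a group were duplicates (over 90 pairs the chi-square for each degree of freedom was at least 3.19).

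Members named were those that passed a test with odour, that had 1 of the 3 smallest p-values with an odour, the 3 highest or lowest ratios without odour or the 3 highest levels, and their neighbours or closest relatives. Olfr1318 was added after its values were seen. The gene lists were odour transduction, receptor choice and trafficking, activity-dependent genes, other genes of the interval and markers of 10 cell types, of which 1 list is not reported here. The members and the lists were chosen with earlier results of these data known.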

Additional observations from a re-analysis of the deposited data

Results flagged for a closer look

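Groups of 5 or 6 pools were searched for a pool far from the rest of its group, in 64 groups over 16 receptors, a search that by chance picks about 1 in 20 groups. It picked 3 pools. The log2 ratio of Olfr1314 in no odour replicate 3 was -1.97, against 0.71 to 1.32 in the other 4 pools without odour, in a receptor with few counts. The log2 ratio of Olfr1318 in no odour replicate 1 was -0.70, against -0.01 to 0.11 in the other 4. The log2 ratio of Olfr1318 in NCD replicate 6 was 1.40, against 0.56 to 0.75 in the other 5. All 3 pools were kept.

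The log2 difference of Olfr1297 between HFD_lard_ and NCD odour, 1.31, was the one difference between odours in the cluster that passed the threshold with edgeR, and this call was lost in 13 of the 21 fits that left out a pool. DESeq2 called Olfr1275 and Olfr1297 both against NCD and against BFD odour.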

How the results depend on the processing

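Counts of called members moved with the threshold, the model and the pools kept. At an adjusted p of 0.05 the count lower without odour went from 4 to 11 and those raised with NCD and HFD_lard_ odour from 2 and 1 to 4 and 4. Members differing between HFD_lard_ and NCD or BFD odour went from 1 and 0 to 2 and 2, and those with changed input from 0 to 3. DESeq2 and no filter each gave 2 for both of these differences, and only the groups compared gave 2 for HFD_lard_ against NCD. Over all 21168 genes DESeq2 gave 7 higher and 9 lower against NCD, and 2 higher and 18 lower against BFD odour. Over 37810 genes no filter gave 2 higher and 7 lower against NCD, and 1 higher and 14 lower against BFD odour. Only the groups compared gave 2 higher and 8 lower of 20397 genes against NCD odour. With ribosomal RNA share as a covariate 1 was raised with BFD odour and 1 differed between HFD_lard_ and BFD odour, while against NCD odour Olfr1297 lost its call (1.32, adjusted p = 0.00107) and Olfr1275 gained one (-1.87, adjusted p = 1.13e-04). Over all genes 45 were raised with BFD odour in that fit, and 6 were lower with HFD_lard_ than with BFD odour. With only the groups compared 0 of the 4 were raised with BFD odour.

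With a replicate block across odours 0 members differed between HFD_lard_ and NCD odour, where the difference of Olfr1297 was 1.27 (adjusted p = 0.00223, range over settings 6.73e-07 to 0.00564). Olfr1276 passed with NCD odour in DESeq2 (1.56, adjusted p = 2.41e-04) and without the pairing of pulldown and input (1.55, adjusted p = 6.21e-04).

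Leaving out each pool gave 0 to 2 members for HFD_lard_ against NCD and 0 to 1 for HFD_lard_ against BFD odour. The call of Olfr1297 against NCD odour was lost in 13 of 21 cases, with the lowest value, 1.22, without HFD_lard_ replicate 2. Olfr1276 lost its call with BFD odour without BFD replicate 2, 3 or 5 (1.72, 1.60 and 1.69) and gained one with NCD odour without NCD replicate 4 or BFD replicate 1 (1.71 and 1.56). The cause was not tested.

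The sign turned in some values that were not called. With ribosomal RNA share as a covariate the BFD minus NCD difference was -0.0135 for Olfr1276, 0.0069 for Olfr1278 and 0.263 for Olfr1275, and the NCD change of Olfr1277 was 0.0703. Its BFD change was 1.08 there, of the same sign as 0.06. Leaving out each pool, the difference ran from -0.224 to 0.0082 for Olfr1278 and from -0.227 to 0.108 for Olfr1275, and the BFD change of Olfr1277 from -0.209 to 0.284.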
